A study of Mus musculus with 6 samples.

Results

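NF-kappaB is a family of dimeric transcription factors that switches on genes of inflammation, survival and immune defence. In resting cells IkappaB proteins hold the dimers in the cytoplasm. Signals from cytokine and pattern receptors pass through TRAF adaptors, ubiquitin ligases and kinases to the IKK complex, which marks IkappaB for destruction and frees the dimers. Many genes of the pathway are themselves switched on by NF-kappaB, among them its inhibitors, so that the response limits itself. Megakaryocytes and the platelets they shed hold several proteins of the pathway, although platelets have no nucleus.

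The genes described here are 38 members of this pathway, listed by name: subunits, IkappaB proteins, the IKK complex and its kinases, receptor adaptors and ubiquitin ligases, brakes, and effector genes. A row of the array with a single gene symbol was found for 32 of the 38, out of 30063 genes in all. Nfkb1, Chuk, Traf3, Ripk1, Ripk2 and Irak1 were not analysed here. A gene with several rows is given by its brightest row on average over the 6 arrays.

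Megakaryocytes, the large polyploid cells that shed platelets, were sorted by flow cytometry for high side scatter, high CD41 and a DNA content of at least 8N. The AML group (3 arrays) came from the marrow of mice with acute myeloid leukaemia driven by MLL-AF9, a fusion oncogene, and the control group (3 arrays) from the marrow of healthy mice. All mice were female and of the strain labelled C57. Ages, the number of mice behind a sort, the way the leukaemia was set up and any treatment of the control mice are not given in the labels. The labels call the arrays biological replicates, without naming animals. A p-value here weighs a difference only against the spread among these samples, which may be partly technical. The arrays are written as AML 1 to AML 3 and control 1 to control 3. Values are deposited log2 RMA levels from a whole-transcript array, ± is the SD over n = 3 arrays, differences are AML minus control, and adjusted p is that of limma over all genes. A gene is called, or said to have fallen, where its adjusted p is under 0.05.

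Of all 30063 genes, 6.25% were called lower and 4.49% higher. In 3947 genes (13.1%) all AML values lay below all control values, and in 8474 genes all lay above them. The median difference over all genes was +0.11. Centring each array on its median moved the calls from 1350 higher and 1880 lower to 505 higher and 2712 lower. The sorts carried megakaryocyte transcripts in both groups: Pf4, platelet factor 4, stood at 11.98 ± 0.22 in AML against 12.09 ± 0.12, and Itga2b, which encodes CD41, at 9.22 ± 0.46 against 9.04 ± 0.11. Of 17 megakaryocyte markers limma called 0 lower and 0 higher, and at an unadjusted p under 0.05 it placed 0 lower and 2 higher. The latter count was 8 without AML 2, 5 without control 1 and 1 without any other single array. The median difference of the list, 0.18, was 0.40 without AML 2 and -0.01 without AML 3. With array weights, with renewed quantile normalization, with either filter on dim genes and without control 1, 1 of them was called higher.

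Most NF-kappaB members stood lower in the sorts of AML mice, less so in the IKK complex and its kinases, where 3 of 6 genes fell. Of the 32 measured members, 24 fell and 0 rose, a share of 75% against the 6.25% of all genes called lower. The members were bright as a set, with 31 of 32 among the 15032 genes at or above the median level. In a fit of those genes alone, 25 members and 2126 genes were called lower. No member was higher at an unadjusted limma p under 0.05 either (0 of 32), although with array weights 1 was. The 3 AML values lay below all 3 control values in 26 of 32 members (81.2%), against 13.1% of all genes, and above them in 1 member. The median difference of the members was -0.79, or -0.90 relative to the median of all genes. Among the largest falls were those of Tnfaip3, 4.06-fold, Rel, 2.79-fold, and Birc3, 2.66-fold. Leaving out control 3, the setting with the fewest calls, left 15 members called, against 24 with all arrays. The count of all genes called lower went from 1880 to 822 in that fit. Over the fits that left out 1 array it ran from 782 to 1967, beside which the counts by role below should be read. In bulk RNA of a sort, fewer cells of a type and less RNA per cell cannot be told apart.

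**Figure D1:**
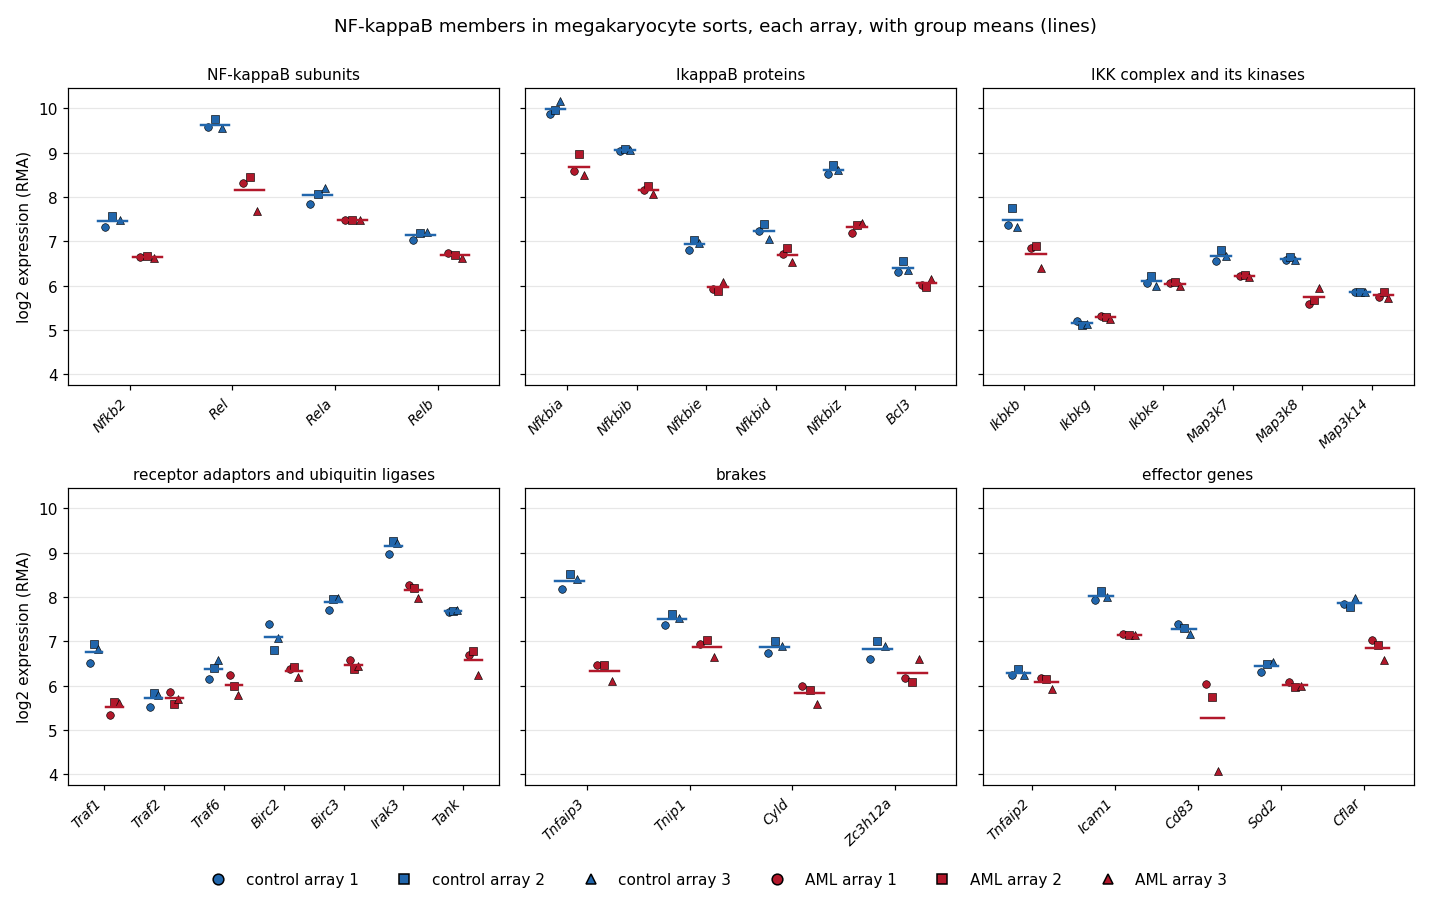
Log2 expression (RMA, vertical axis) of the 32 measured members on each of the 6 arrays, in 6 panels by role, with blue for control and red for AML, a symbol for each array and a line at each group mean. Red symbols lie below all blue ones in 26 of the 32 genes, and AML 3 reads far below the other AML arrays for Cd83 and Rel.

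The subunits fell together. Rel encodes c-Rel, the subunit of stimulated immune cells. It read 8.32, 8.45 and 7.68 on AML 1, AML 2 and AML 3 and 9.58, 9.75 and 9.56 on the control arrays. AML 3 was the lowest, and even the highest AML array stayed below every control. Rel fell by 1.48 (95% interval -1.94 to -1.02, adjusted p = 0.00581). Nfkb2 encodes p100, the precursor of the p52 subunit of the alternative pathway. It read 6.65, 6.66 and 6.61 in AML and 7.32, 7.56 and 7.49 in control. The AML arrays were almost level, all below control, and the gene fell 1.76-fold (adjusted p = 0.0022). Rela, the transactivating subunit p65, stood at 7.48 ± 0.003 against 8.03 ± 0.19 and fell by 0.56 (adjusted p = 0.0194). Relb, the usual partner of p52, stood at 6.68 ± 0.05 against 7.14 ± 0.10 and fell by 0.46 (adjusted p = 0.0164). The calls of Rela and Relb were lost without AML 2, control 2 or control 3 (adjusted p from 0.0543 up to 0.0899), and that of Rela also without AML 1 (adjusted p = 0.0552). Thus 4 of 4 measured subunits fell, and 2 of 4 were called when AML 2, control 2 or control 3 was left out.

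IkappaB proteins fell as well, in 5 of 6 genes. Nfkbia encodes IkappaB-alpha, the inhibitor that NF-kappaB itself induces within minutes. It read 8.58, 8.98 and 8.49 in AML and 9.87, 9.95 and 10.16 in control. No AML array reached the lowest control, and Nfkbia fell 2.48-fold (95% interval of the log2 difference -1.65 to -0.97, adjusted p = 0.00307). Nfkbib, for IkappaB-beta, read 8.16, 8.23 and 8.07 in AML and 9.03, 9.07 and 9.07 in control. Both groups were tight and apart, and the gene fell by 0.90 (adjusted p = 0.00104). Nfkbie, for IkappaB-epsilon, read 5.92, 5.87 and 6.08 in AML and 6.80, 7.04 and 6.97 in control. It fell 1.97-fold with no overlap (adjusted p = 0.00191).

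The remaining IkappaB members act in the nucleus, where they tune the choice of target genes. Nfkbiz encodes IkappaB-zeta, which is needed for Il6 transcription in macrophages. It read 7.18, 7.37 and 7.42 in AML and 8.51, 8.71 and 8.60 in control. The gap between the groups exceeded the spread inside either, and Nfkbiz fell 2.44-fold (adjusted p = 7.54e-04). Nfkbid, for IkappaB-NS, stood at 6.70 ± 0.15 against 7.23 ± 0.16 and fell by 0.53 (adjusted p = 0.033). Its call was lost without any single array (adjusted p from 0.0502 up to 0.123) and with renewed quantile normalization (adjusted p = 0.0616). Bcl3, a coactivator for p50 and p52 dimers, stood at 6.05 ± 0.09 against 6.40 ± 0.14. Its AML values lay below all control values, and its adjusted p was 0.0616. It was called lower in 5 of its 17 alternatives, among them median centring (adjusted p = 0.0333) and leaving out AML 3 (adjusted p = 0.0486).

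The promoters of these genes were searched for the kappaB consensus, the 10-base site that NF-kappaB dimers bind. It reads G at the first 3 bases, then a purine, any 2 bases, 2 pyrimidines and C at the last 2. RefSeq promoter windows of the mouse assembly GRCm38.p6 were searched over 250 bases before each annotated start, on both strands, with overlapping matches counted once. Of 27 measured members with a window, 12 held a match (44.4%), against 8.23% of 27025 genes. Counted by window, 17 of 40 windows of members (42.5%) and 7.25% of all 32851 windows held a match, and windows of a single gene can overlap. The windows of members had a median GC content of 60.0%, against 52.4% over all windows. Among all windows within the middle 50% of the members' GC content, 10.1% held a match. Of the 19 fallen members with a window 11 held a match, and of the 8 that were not called 1 did. Of 15 members known to be induced by NF-kappaB 9 held a match, and of the 12 others 3 did. Neither split was tested. By role, matches were found in 3 of 4 brakes, 3 of 5 IkappaB genes, 2 of 3 subunits and 2 of 4 effector genes. They were found in 1 of 4 genes of the IKK complex and its kinases and in 1 of 7 adaptors and ubiquitin ligases. A match describes letters only, and a window without a match says nothing on binding elsewhere.

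The stretches around the match are shown as examples for 4 genes that hold the pathway back and for Rel. They were picked among members that fell, are known to be induced by NF-kappaB and held a match, so the choice fixed this agreement. Nfkb2, Nfkbid and Sod2 also met these terms and are not shown. Tnfaip2 is known to be induced and held a match, but was not called. Tank, Cyld and Map3k7 held a match and fell, but are not among the members known to be induced. Capitals mark the match or overlapping matches, and each stretch runs 5′ to 3′ on the strand of its gene. They lie at chr12:55492648-55492711 (Nfkbia, minus strand), chr17:45555559-45555638 (Nfkbie, plus strand), chr10:19015411-19015457 (Tnfaip3, minus strand), chr11:54962957-54963033 (Tnip1, minus strand) and chr11:23771016-23771096 (Rel, minus strand) of GRCm38.p6.
Nfkbia: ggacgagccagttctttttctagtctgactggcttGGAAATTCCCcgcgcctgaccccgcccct
Nfkbie: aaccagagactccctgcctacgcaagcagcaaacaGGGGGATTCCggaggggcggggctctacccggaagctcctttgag
Tnfaip3: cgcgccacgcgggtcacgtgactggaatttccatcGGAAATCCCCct
Tnip1: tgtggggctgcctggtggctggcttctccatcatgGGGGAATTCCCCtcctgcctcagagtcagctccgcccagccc
Rel: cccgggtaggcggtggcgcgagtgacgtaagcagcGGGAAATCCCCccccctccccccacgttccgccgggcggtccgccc

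The match began 29 bases before the annotated start in Nfkbia, 106 in Nfkbie, 12 in Tnfaip3, 58 in Tnip1 and 92 in Rel. In Nfkbia and Tnfaip3 it lies on the strand opposite to the gene, in Nfkbie on the strand of the gene, and in Tnip1 and Rel on both, as the site is close to a palindrome. The window of Tnfaip3 held a second match, which began 125 bases before the start.

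The IKK complex and its kinases split, with 3 of 6 genes fallen and 0 risen. Map3k8 encodes TPL2, a kinase that p105 holds inactive until IKK acts. It read 5.58, 5.67 and 5.95 in AML and 6.57, 6.64 and 6.58 in control. AML 3 was the highest of its group here, yet below every control, and Map3k8 fell 1.81-fold (adjusted p = 0.00477). Ikbkb, for the catalytic subunit IKK-beta, stood at 6.71 ± 0.27 against 7.48 ± 0.24 and fell by 0.77 (adjusted p = 0.0347). Its call was lost without AML 1, AML 2 or any control (adjusted p from 0.0566 up to 0.114) and with renewed quantile normalization (adjusted p = 0.0513). Map3k7, for TAK1, the kinase that phosphorylates IKK, stood at 6.21 ± 0.03 against 6.67 ± 0.12 and fell by 0.46 (adjusted p = 0.0177). Its call was lost without AML 1, AML 2, control 2 or control 3 (adjusted p from 0.0529 up to 0.0778). Without any single one of these 4 arrays, 1 of the 6 genes was called.

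Of the genes of this group that were not called, Ikbkg encodes NEMO, the regulatory subunit of IKK. It stood at 5.28 ± 0.03 against 5.14 ± 0.04, a difference of +0.14 (95% interval -0.02 to 0.29, adjusted p = 0.197). Both means lay below 5.51, the 95th percentile of 1718 olfactory and vomeronasal receptor genes, a family taken here as a guide to dim rows. Ikbke, a kinase of the interferon response related to IKK, stood at 6.04 ± 0.05 against 6.09 ± 0.12, a difference of -0.05 (95% interval -0.25 to 0.15). Map3k14, for NIK, the kinase that starts the alternative pathway, stood at 5.78 ± 0.07 against 5.85 ± 0.01, a difference of -0.07 (95% interval -0.24 to 0.09). The intervals of all 3 genes include 0.

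**Figure D2:**
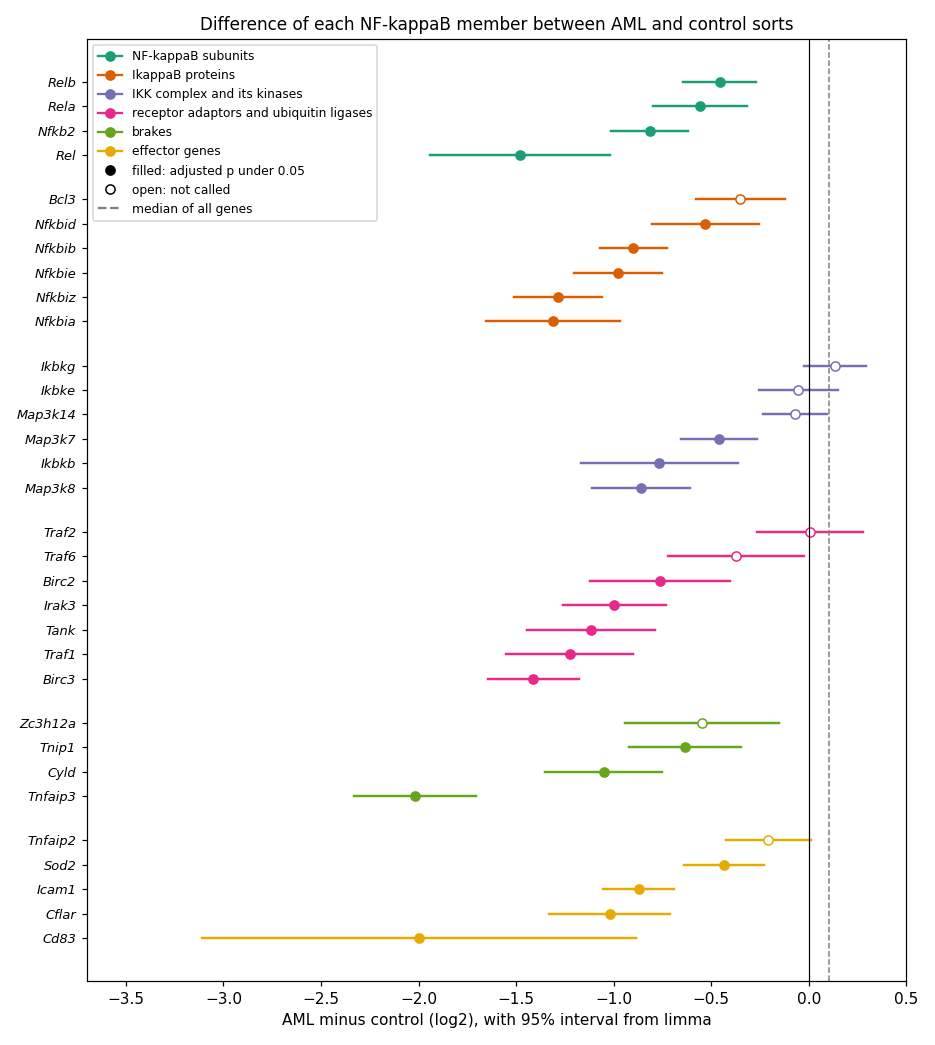
Difference of each member (AML minus control, log2, horizontal axis) with its 95% interval from limma, coloured by role, where filled points have an adjusted p under 0.05. The dashed line is the median of all genes at +0.11. Intervals of Ikbkg, Ikbke, Map3k14, Traf2 and Tnfaip2 span 0, and those of Tnfaip3, Birc3, Nfkbiz and Rel lie wholly below -1.

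Adaptors and ubiquitin ligases that pass signals from receptors fell in 5 of 7 genes. Birc3 encodes cIAP2, a ubiquitin ligase that NF-kappaB induces. It read 6.58, 6.38 and 6.44 in AML and 7.71, 7.95 and 7.97 in control. A clear gap separated the groups, and Birc3 fell 2.66-fold (95% interval of the log2 difference -1.65 to -1.18, adjusted p = 6.83e-04). Traf1, a TRAF adaptor that is also an induced gene, read 5.34, 5.64 and 5.61 in AML and 6.50, 6.94 and 6.82 in control. It fell 2.34-fold (adjusted p = 0.00319), to an AML mean of 5.53 at the edge of the dim level of 5.51. Tank, an adaptor that binds TRAF proteins and the kinase TBK1, read 6.69, 6.77 and 6.25 in AML and 7.66, 7.68 and 7.72 in control. AML 3 was again the lowest, and Tank fell 2.17-fold (adjusted p = 0.00477).

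Irak3 encodes IRAK-M, a kinase relative without activity that dampens Toll-like receptor signals in monocytes and macrophages. It read 8.26, 8.21 and 7.98 in AML and 8.98, 9.26 and 9.22 in control. The groups were apart and Irak3 fell by 1.0 on the log2 scale (adjusted p = 0.00318). Birc2, for cIAP1, the close relative of cIAP2, stood at 6.33 ± 0.12 against 7.10 ± 0.29 and fell by 0.76 (adjusted p = 0.0251). Its call was lost without AML 1, AML 2 or control 3 (adjusted p from 0.0602 up to 0.0916). A second row, whose older symbol RefSeq now lists under Birc2, stood at 6.61 ± 0.08 against 6.75 ± 0.17, and the mean of both rows fell short of the threshold (adjusted p = 0.0569). Traf6, the ubiquitin ligase of Toll-like and interleukin 1 receptors, stood at 6.01 ± 0.22 against 6.38 ± 0.21 (adjusted p = 0.134) with overlapping groups. Traf2, the adaptor of TNF receptors, stood at 5.72 ± 0.13 against 5.72 ± 0.18, a difference of 0.004 (95% interval -0.27 to 0.28, adjusted p = 0.982).

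The brakes of the pathway fell in 3 of 4 genes. Tnfaip3 encodes A20, a ubiquitin-editing enzyme that ends NF-kappaB signals and is a classic induced gene. It read 6.46, 6.46 and 6.11 in AML and 8.17, 8.52 and 8.40 in control. Every AML array lay more than 1.5 log2 units below the lowest control. Tnfaip3 fell by 2.02 (95% interval -2.33 to -1.71, adjusted p = 5.38e-04). Cyld, a deubiquitinase and tumour suppressor, read 6.0, 5.90 and 5.60 in AML and 6.73, 7.01 and 6.91 in control, and fell 2.07-fold (adjusted p = 0.00424). Tnip1, whose protein ABIN1 brings A20 to its substrates, stood at 6.87 ± 0.20 against 7.50 ± 0.13 and fell by 0.63 (adjusted p = 0.0227). Its call was lost without AML 1, control 2 or control 3 (adjusted p from 0.0522 up to 0.0986), and without each of these arrays 2 of the 4 brakes were called. Zc3h12a encodes regnase-1, a ribonuclease that degrades transcripts such as that of Il6. It stood at 6.29 ± 0.28 against 6.84 ± 0.22 with overlapping groups (adjusted p = 0.0778), and was called lower without AML 3 (adjusted p = 0.0235), its highest AML value.

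Effector genes fell in 4 of 5. Icam1, an adhesion molecule for leukocytes, read 7.17, 7.13 and 7.15 in AML and 7.93, 8.13 and 8.01 in control. The AML arrays agreed closely with each other, and Icam1 fell 1.83-fold (adjusted p = 0.00141). Cflar encodes cFLIP, which blocks caspase-8 and so keeps cells alive under TNF. It read 7.03, 6.91 and 6.57 in AML and 7.84, 7.76 and 7.98 in control, and fell 2.03-fold (adjusted p = 0.00531). The identifier of that row is numbered for another chromosome than the one RefSeq gives for Cflar. The row numbered for the gene's own chromosome stood at 6.80 ± 0.10 against 7.28 ± 0.03, a difference of -0.48 (adjusted p = 0.0122 with that row in the fit instead).

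Cd83 marks mature dendritic cells and activated lymphocytes. It read 6.04, 5.74 and 4.07 in AML and 7.39, 7.30 and 7.16 in control. The groups did not overlap, but AML 3 lay far below the others, and the difference of -2.0 had a wide interval (-3.11 to -0.89, adjusted p = 0.0411). The AML mean of 5.28 lay below the dim level of 5.51, so the size of the fall is uncertain. It ran from -2.38 without AML 1 to -1.39 without AML 3. This row was not placed on the genome by the array design, as its identifier says. The placed row read 5.86, 5.75 and 5.08 against 6.62, 6.42 and 6.58, a difference of -0.98 (adjusted p = 0.0269 with that row in the fit instead). The call on the first row was lost without AML 2 or any control (adjusted p from 0.07 up to 0.133) and with renewed quantile normalization (adjusted p = 0.0529). Sod2, the mitochondrial superoxide dismutase, stood at 6.01 ± 0.06 against 6.44 ± 0.12 and fell by 0.44 (adjusted p = 0.0248). Its call was lost without AML 1, AML 2, control 2 or control 3 (adjusted p from 0.0523 up to 0.11). Without AML 2, control 2 or control 3, 2 of the 5 effector genes were called. Tnfaip2, a TNF-induced gene of endothelial and myeloid cells, stood at 6.08 ± 0.14 against 6.29 ± 0.07 (adjusted p = 0.167), with AML values below all control values.

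Members known to be induced by NF-kappaB and the other members can be set side by side. Of 19 measured genes of the first kind 16 fell, with a median difference of -0.87, and their AML and control values did not overlap in 18. Of 13 of the second kind 8 fell, with a median of -0.56 and no overlap, AML below control, in 8. Over all genes 6.25% were called lower, and in 13.1% all AML values lay below all control values. Of the second kind 4 were called without AML 1, AML 2 or control 3 and 5 without control 2, and the first kind had its lowest count, 11, without control 2 or control 3. Without control 2 the count of all genes called lower went from 1880 to 782. The difference between the kinds was not tested.

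The arrays did not rank alike over the members. AML 3 was the lowest of its group in 22 of 32 members (68.8%), against 40.5% of all genes. Control 1 was the lowest control in 23 of 32 (71.9%), against 31.7% of all genes, and control 2 the highest in 20 of 32 (62.5%), against 21.9%. Leaving out AML 3 gave 25 fallen members and a median difference of -0.76. Leaving out control 1 gave 21 and -0.85, and leaving out control 2 gave 16 and -0.79.

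Other genes of the pathway, from lists drawn up from textbook knowledge, are signalling genes or induced genes. Earlier results of these data were known when the lists were drawn up, so their shares are a description and not independent support. Of 46 further signalling genes 10 fell (21.7%) and 2 rose (4.35%), with a median difference of -0.19. The largest falls were those of Tnip3, a relative of Tnip1, Tnfrsf1b, the second TNF receptor, and Malt1, the protease of antigen receptor signals. Tnip3 went from 6.44 ± 0.09 to 4.42 ± 0.45 (difference -2.02, adjusted p = 0.00237), an AML mean below the dim level. The differences of Tnfrsf1b and Malt1 were -1.18 and -1.15. Peli1, a ubiquitin ligase, fell by 0.77, Tax1bp1, a partner of A20, by 0.74 and Itch, another partner of A20, by 0.52. The calls of Tax1bp1 and Itch were lost without AML 2, control 2 or control 3 (adjusted p from 0.0535 up to 0.093). Card9, the adaptor of C-type lectin receptors, rose by +0.60 and Tbkbp1, an adaptor of TBK1, by +0.30. The call of Card9 was lost without any single array but AML 3 (adjusted p from 0.0713 up to 0.107) and under median centring (adjusted p = 0.0799). That of Tbkbp1 was lost without any single array (adjusted p from 0.0561 up to 0.167), under median centring (0.158) and under cyclic loess (0.0573). The count of fallen signalling genes was 4 without AML 2, control 2 or control 3, and 15 under median centring, where 0 rose.

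Among 40 further induced genes 25 fell (62.5%) and 0 rose by limma, with 1 higher at an unadjusted p under 0.05, and the median difference was -0.92. The falls were led by the cytokine genes Il6 (difference -3.44) and Il1b (-3.27) and by the chemokine genes Ccl3 (-2.62), Cxcl2 (-2.45) and Ccl2 (-2.42). Ptgs2, the inducible cyclooxygenase, fell by 2.41, from 9.47 ± 0.07 to 7.06 ± 0.19 (adjusted p = 2.21e-04). Array weights, a mean-variance trend, renewed quantile normalization, either filter on dim genes and leaving out AML 2 each gave 1 gene called higher. Vcam1 is on both this list and that of macrophage markers.

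**Figure D3:**
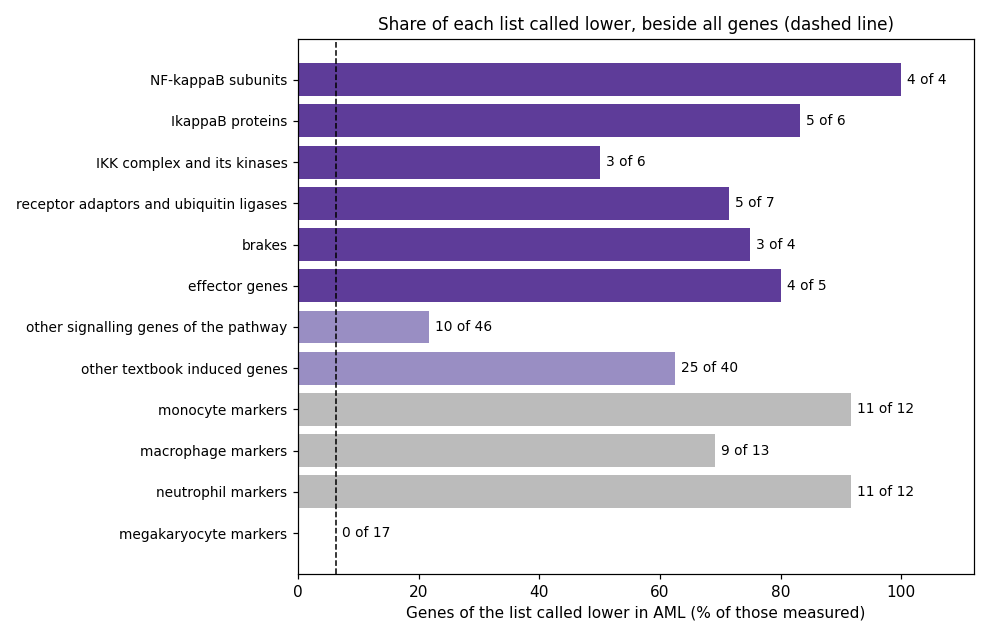
Share of the measured genes of each list that was called lower in AML (horizontal axis, %), with counts beside the bars. Dark bars are the 6 roles of the members, light purple bars the further pathway genes and grey bars cell type markers. The dashed line is the 6.25% of all genes, and 0 of 17 megakaryocyte markers were called lower.

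Markers of myeloid cells moved with the NF-kappaB genes. Of 12 monocyte markers 11 fell, with a median difference of -1.23 over the list. The log2 of their summed level ran from 12.49 to 12.91 in AML and from 13.01 to 13.17 in control. Ly6c2, which weighs heavily in that sum, was the 1 marker not called, at 12.27 ± 0.30 in AML against 11.95 ± 0.10 (adjusted p = 0.187). Of 13 macrophage markers 9 fell, with summed levels of 10.99 to 11.64 against 12.14 to 12.31. The count of macrophage markers was 11 with AML 1 dropped, 9 with AML 3 dropped, 8 with control 1 dropped, 5 with AML 2 dropped and 3 with either control 2 or control 3 dropped. Of 12 neutrophil markers 11 fell, with summed levels of 12.88 to 13.22 against 14.47 to 14.71. The summed level of the megakaryocyte markers ran from 14.14 to 14.61 in AML and from 14.28 to 14.55 in control. Among these 4 lists the mean of 1 gene, the macrophage marker Spic, lay at or below the dim level in AML, and in control that of none did. Several NF-kappaB members are strongly expressed in monocytes, macrophages and neutrophils, as background knowledge has it, and the part of these cells in the fall of the members was not tested.

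The lists of other cell types changed less evenly. Of 8 basophil and mast cell markers 5 fell, with summed levels of 10.31 to 10.62 in AML against 11.86 to 12.29. The median difference of that list, -1.55, was the largest fall among the marker lists, ahead of -1.32 for neutrophil markers. Its count stayed at 5 in each fit that left out 1 array. Of 7 eosinophil markers 4 fell, of 12 dendritic cell markers 4, of 9 B cell markers 4, of 7 erythroid markers 3 and of 9 endothelial and stromal markers 4. The last list also held 1 gene called higher, which was called only with all arrays or without AML 3 among the fits that left out 1 array. The eosinophil count was 2 without AML 1, control 2 or control 3. The B cell count was 2 when AML 2, AML 3, control 1 or control 2 was dropped. The endothelial and stromal count was 2 without AML 2, and the erythroid count 2 without AML 2, control 2 or control 3. Of 9 T and NK cell markers 1 was called higher and 0 lower by limma, with 2 lower and 3 higher at an unadjusted p under 0.05. The call was lost (0 higher) in each fit that left out 1 array, except the fit without control 1. The AML means of 8 of these 9 lay at or below the dim level.

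**Figure D4:**
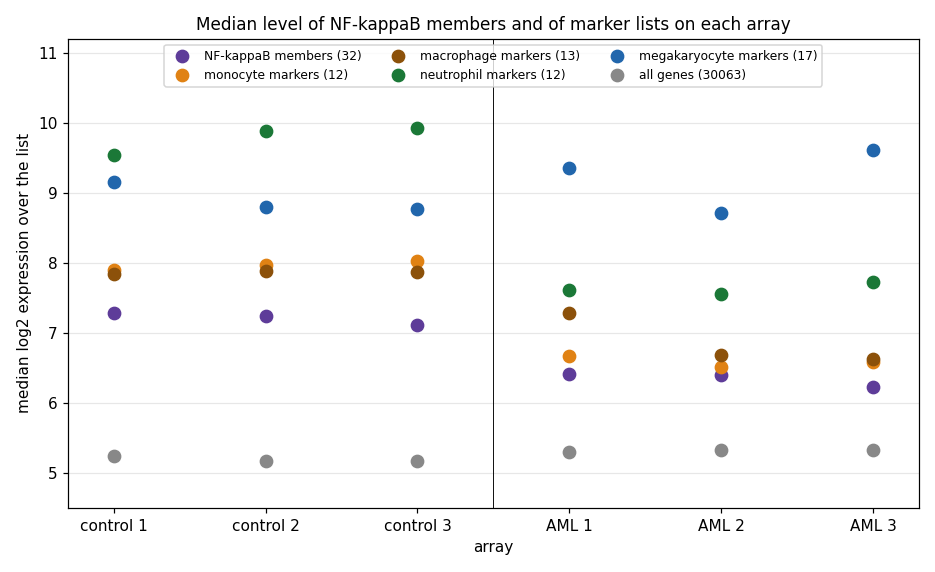
Median log2 expression over each list (vertical axis) on each array (horizontal axis), with the number of genes in brackets. The medians of the NF-kappaB members lie between 7.12 and 7.28 on the control arrays and between 6.22 and 6.42 on the AML arrays, and those of monocyte, macrophage and neutrophil markers are lower on each AML array too, while those of megakaryocyte markers overlap between the groups.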

How the data were processed

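The log2 expression values were deposited by the authors as RMA output, per the submitters' processing notes. RMA corrects background, makes the arrays' distributions equal and sums up each row's probes. Per the labels' protocols, 250 ng of total RNA was used for biotin-labelled cDNA. A genome build for the array design was not given in the sources used here. Of 72688 rows, 30604 had a single gene symbol, updated through RefSeq (GRCm38.p6), which gave 30063 genes.

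All genes were fitted with limma (lmFit and eBayes, two-sided, Benjamini-Hochberg over all genes), AML against control, and the members were read from that fit. It was tested on simulated data. The members and lists were chosen with earlier results of these data known. All members are described, and of the other pathway genes up to 6 called in each direction in each list. The count of kappaB matches used RefSeq sequences. Alternatives were a replicate block, a trend, array weights, 3 normalizations, 2 filters on dim genes, the mean of rows, all rows in the fit, leaving out each array and a 1.5-fold minimum. The other rows of Cd83 and Cflar were an alternative chosen after seeing the data. The fit ran in R 4.3.3 (limma 3.58.1), tables were made in Python 3.11.15 with numpy 2.4.6 and pandas 2.3.3, and plots with matplotlib 3.10.9.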

Additional observations from a re-analysis of the deposited data

How the results depend on the processing

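The count of fallen members, 24, lay between 15 and 25 when 1 array was left out, and was 17 with the replicate block, 18 with all rows in the fit, 19 with a 1.5-fold minimum and between 21 and 26 under the remaining alternatives. No alternative gave a member called higher (0 in each). Of the 24 calls, 15 held under every alternative tried on single genes. These were Nfkb2, Rel, Nfkbia, Nfkbib, Nfkbie, Nfkbiz, Map3k8, Traf1, Birc3, Irak3, Tank, Tnfaip3, Cyld, Icam1 and Cflar. Rela, Relb, Map3k7, Birc2, Tnip1, Cd83 and Sod2 also lost their calls with the replicate block (adjusted p from 0.0543 up to 0.0985). With all rows in the fit those of Nfkbid, Ikbkb, Birc2, Tnip1, Cd83 and Sod2 were lost (adjusted p from 0.0507 up to 0.0746). Over the members' single values under alternatives, 476 kept direction and call, 53 lost a call, 7 gained one and 7 changed sign. The sign changes were those of Traf2, with -0.0253 under array weights, -0.0623 with renewed quantile normalization, -0.12 under median centring, -0.0669 under cyclic loess and -0.10 to 0.0659 when 1 array was left out (below 0 without AML 1 or control 1), and of Ikbke, with 0.0143 without control 2. Over all genes, 1880 lower and 1350 higher became 861 and 206 with the replicate block, 3014 and 4839 with array weights, 1163 and 401 with all rows in the fit and 1126 and 439 with a 1.5-fold minimum. Median centring gave 505 higher. Leaving out 1 array gave 782 to 1967 lower and 185 to 1639 higher. The cause of these moves was not tested. The deviations of arrays with the same number from their group means had correlations across genes of -0.36, 0.14 and -0.29. Those of arrays with different numbers ran from -0.28 to 0.43. Deviations within a group sum to 0, so these values cannot tell whether samples were paired. The number of arrays limits the precision.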

Other observations

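The kappaB consensus searched in the members' promoters can be set against all genes of the array that have a RefSeq window. Of 1606 genes with a match in the 250 bases before a start, 183 were called lower in AML (11.4%) and 59 higher (3.67%). Of 16402 genes without one, 1153 were called lower (7.03%) and 693 higher (4.23%). Leaving out the members and the further pathway genes gave 10.4% lower among 1578 genes with a match and 6.88% among 16335 without. Genes with a match were also brighter, with a median level of 5.70 against 5.29. Among genes at or above the median level of all genes, 17.3% of 1004 with a match and 12.6% of 8333 without were called lower. The windows with a match had a median GC content of 58.8%, against 52.4% over all windows. These shares are a description and were not tested.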
